A study of Mus musculus with 16 samples.

Results

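The genes described here were 10 members of the Wnt pathway, namely the ligands Wnt5a, Wnt5b, Wnt6, Wnt10a and Wnt10b, the receptors Fzd1 and Fzd4, the co-receptor Lrp6, the transcription factor Tcf7l2 and the pathway inhibitor Axin2. They were taken by name from a list, drawn up with earlier results of these data known, and stand among 22367 protein-coding genes annotated on the mouse genome build mm9. For each gene the window examined was its annotated body plus 50 kb on each side. Every island, that is every stretch of enriched chromatin in a deposited list, that overlapped this window was recorded. The gene bodies lie at chr14:29317936-29340633 (Wnt5a), chr6:119382549-119494336 (Wnt5b), chr1:74818466-74831893 (Wnt6), chr1:74838090-74850753 (Wnt10a), chr15:98602184-98608581 (Wnt10b), chr5:4753842-4758216 (Fzd1), chr7:96552876-96558620 (Fzd4), chr6:134396494-134516983 (Lrp6), chr19:55816300-56008144 (Tcf7l2) and chr11:108781663-108812097 (Axin2).

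Wnt ligands are secreted lipid-modified proteins that bind Frizzled receptors together with the co-receptors LRP5 and LRP6. In the canonical branch this binding prevents the destruction complex, in which AXIN2 serves as a scaffold, from degrading β-catenin, which then acts with TCF/LEF factors such as TCF7L2 on target genes. Canonical ligands such as WNT10B hold preadipocytes in the undifferentiated state, whereas WNT5A and WNT5B act largely outside the β-catenin branch.

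The study profiled chromatin of 3T3-L1 cells, mouse preadipocytes that differentiate into fat cells in culture, by chromatin immunoprecipitation sequencing (ChIP-seq) during induction with MDI, a mixture of insulin, dexamethasone and a phosphodiesterase inhibitor. Acetylated histone H3 lysine 27 (H3K27ac), a mark of active promoters and enhancers, was mapped in cells carrying an empty retroviral vector and in cells carrying V5-tagged SETD5, a chromatin protein of the NCoR-HDAC3 co-repressor complex, at 0 h and 48 h, with replicates A and B each. The transgene was delivered by retrovirus, and 1 line of moderate expression was used. Tagged SETD5 (SETD5-V5) was mapped with the V5 antibody at 0 h and 6 h, with replicates A and B each. H3K4me1, which marks enhancers whether primed or active, at 0 h and 48 h, and endogenous SETD5 at 0 h and 6 h had 1 library per time point. The labels give no virus for replicate A of SETD5-V5, and they give the SETD-V5 virus for H3K4me1, which the study shows as untransduced cells.

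The 8 H3K27ac lists held 31292 to 39949 islands covering 103 to 122 Mb. SETD5-V5 lists were less even, with 16054 (A) and 6666 (B) islands at 0 h against 35573 (A) and 27220 (B) at 6 h. All 7 preadipocyte and fibroblast markers, Pdgfra and Dlk1 among them, had an H3K27ac island at a promoter in all 8 libraries. Of 6 adipocyte markers, 2 had one in both 0 h replicates of either vector, and 5 (empty vector) and 4 (SETD5 cells) had one in both 48 h replicates. Of 10 endothelial, blood, muscle and epithelial markers, 0 had one in both replicates of any group. The lists hold positions and a score and no read counts, so read depth within an island is unknown and the number of libraries limits the precision.

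Wnt5a, Fzd1 and Wnt5b carried H3K27ac regions away from their starts that both empty-vector replicates lost or gained by 48 h. The centres of 3 such regions, chosen after their islands were seen, are given first. Each is the central 200 bases of the stretch shared by islands of both empty-vector replicates, read from mm9 on the plus strand, with any tandem repeat of 20 bases or more in capitals. The Fzd1 region given was lost under both vectors, and much of the Wnt5b gain described below lay elsewhere in its window. A Wnt5a region at chr14:29384701-29384900, 66.9 kb after the gene's first start and in no annotated gene, a Fzd1 region at chr5:4794901-4795100, 36.8 kb before the start and in no annotated gene, and a Wnt5b region at chr6:119480701-119480900, in an intron 13.5 kb after the first start, read as follows.
Wnt5a distal region: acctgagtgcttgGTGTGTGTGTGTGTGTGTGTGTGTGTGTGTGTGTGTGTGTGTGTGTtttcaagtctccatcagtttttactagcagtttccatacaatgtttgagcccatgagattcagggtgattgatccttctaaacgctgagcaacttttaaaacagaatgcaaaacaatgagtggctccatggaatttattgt
Fzd1 nearer upstream region: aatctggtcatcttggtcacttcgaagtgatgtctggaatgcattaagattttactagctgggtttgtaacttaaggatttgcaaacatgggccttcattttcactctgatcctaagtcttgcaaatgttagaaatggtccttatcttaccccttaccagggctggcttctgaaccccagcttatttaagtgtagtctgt
Wnt5b intronic region: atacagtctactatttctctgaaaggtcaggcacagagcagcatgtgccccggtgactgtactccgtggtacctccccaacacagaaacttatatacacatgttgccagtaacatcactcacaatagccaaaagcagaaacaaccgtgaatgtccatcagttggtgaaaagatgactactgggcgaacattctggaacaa
The first of these held a GT repeat of 46 bases. A repeat of at least 20 bases, with a unit of 1 to 3 bases, was present in 3.50% of the centres of all 32468 stretches shared by both empty-vector 0 h lists. None of the 3 sequences held a C/EBP site (TTGCNNAA, found in 9.30% of these centres), an AP-1 site (TGACTCA, 4.85%) or a TCF/LEF site (CTTTG followed by any 2 letters that are each A or T, 13.8%) on either strand. The Wnt5b region came from the 48 h lists of empty-vector cells. In centres of stretches shared by those 2 lists the shares were 10.1%, 5.63% and 13.4%.

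The promoters of Wnt5a and Fzd1 bore acetylated islands in all 8 libraries that were shorter at 48 h in empty-vector cells. They are given as the 250 bases before the start on the strand of the gene, with CpG dinucleotides in capitals, from chr14:29317686-29317935 (plus strand) and chr5:4758217-4758466 (minus strand).
Wnt5a promoter: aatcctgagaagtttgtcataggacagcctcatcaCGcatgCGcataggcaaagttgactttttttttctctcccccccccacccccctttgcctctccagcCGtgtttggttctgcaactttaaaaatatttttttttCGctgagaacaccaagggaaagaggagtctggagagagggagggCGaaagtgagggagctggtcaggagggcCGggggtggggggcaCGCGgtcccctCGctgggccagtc
Fzd1 promoter: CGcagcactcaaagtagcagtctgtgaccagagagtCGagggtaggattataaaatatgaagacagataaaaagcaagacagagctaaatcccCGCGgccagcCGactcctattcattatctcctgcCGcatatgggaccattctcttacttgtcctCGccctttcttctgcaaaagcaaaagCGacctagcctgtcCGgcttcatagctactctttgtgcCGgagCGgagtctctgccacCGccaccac
They held 9 and 12 CpG, against a median of 9 over 22362 promoters of protein-coding genes, and 1 C/EBP site each, which 9.12% of promoters held. Promoters of the other members had 3 CpG (Wnt10a) to 45 CpG (Lrp6), and none of the 10 promoters held a TCF/LEF site.

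At the promoters (1000 bp before to 100 bp after any annotated start), 5 of the 10 genes had an H3K27ac island in all 8 libraries, whereas 42.1% of all protein-coding genes did. These were Wnt5a, Fzd1, Fzd4, Lrp6 and Tcf7l2. Wnt10a and Axin2 had none in any H3K27ac library, a state shared by 47.0% of all genes. The remaining 3 ligands had promoter islands in some libraries. Wnt6 had one in empty-vector 0 h A and empty-vector 48 h B, Wnt10b in SETD5 48 h A, and Wnt5b in SETD5 0 h A and B, at its second start 77.1 kb inside the longest transcript.

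The islands at constant promoters differed in rank, given as the percentage of islands in the same list with a higher score, so that a low value marks a strong island. Tcf7l2 had the best-ranked promoter islands of the group, at 0.208% (A) and 0.161% (B) in empty-vector cells at 0 h and 0.422% and 0.453% at 48 h, and 13.2 to 15.4 kb long over all 8 libraries. Fzd1 ranked at 0.605% and 0.643% at 0 h and 1.55% and 2.04% at 48 h, and Lrp6 at 0.697% and 0.736% against 0.553% and 0.564%. Fzd4 ranked lower in strength, at 23.1% and 30.1% at 0 h and 15.2% and 17.5% at 48 h. Thus, in empty-vector cells, the later promoter islands of Fzd1 and Tcf7l2 ranked behind the earlier ones, and those of Lrp6 and Fzd4 ahead of them.

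The promoter island of Wnt5a moved down the ranking. In empty-vector cells its promoter island ranked at 2.61% (A) and 1.78% (B) at 0 h and at 13.8% and 8.90% at 48 h. In SETD5 cells it ranked at 0.926% and 0.795% at 0 h and at 2.12% and 1.75% at 48 h. The 48 h values of empty-vector cells lay outside the range of the other 6 libraries. Ranks were not tested.

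To compare whole windows, the length covered by islands was taken per library and tested as log2(kb + 1) with limma, with Benjamini-Hochberg adjustment over 17869 genes. Between 0 h and 48 h in empty-vector cells, 6 of the 9 genes tested passed the adjusted 5% threshold, 2 higher and 4 lower. Wnt6 and Wnt10a hold the same islands, and counted once they leave 5 of 8 genes, 2 higher and 3 lower. Across all genes tested, 39.0% passed, 24.9% higher and 14.2% lower. The median difference was -0.35 over the 9 genes, -0.07 with that pair counted once, and 0.13 for all genes. Axin2 could not be tested, as described below.

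**Figure D1:**
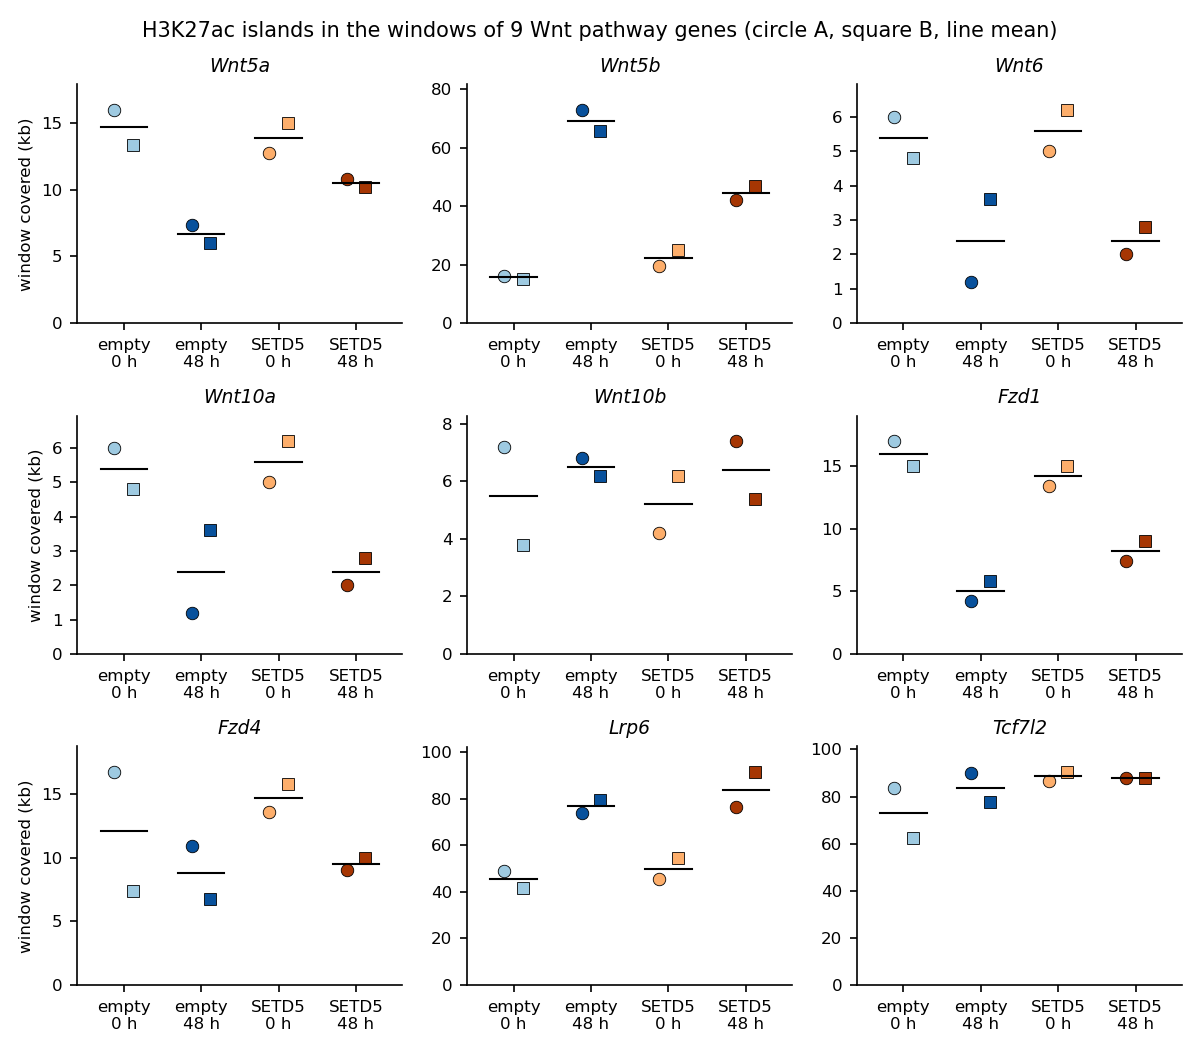
Length of each gene's window covered by H3K27ac islands (kb, linear axis from 0) in empty-vector (empty) and SETD5 cells at 0 h and 48 h. Circles are replicate A, squares replicate B and lines the mean of both; Wnt5b rises from 15.0 and 16.2 kb to 65.6 and 72.9 kb in empty-vector cells, while Fzd1 drops from 15.0 and 17.0 kb to 4.20 and 5.80 kb.

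Wnt5a, the main noncanonical ligand, had 16 kb (A) and 13.4 kb (B) covered at 0 h and 7.40 kb and 6.00 kb at 48 h in empty-vector cells. The time points did not overlap, as for 23.3% of all genes tested that were lower at 48 h and 40.1% that were higher, and the log2 difference was -1.03 ± 0.17 (SE, n = 2 per time point, limma adjusted p = 0.00107). Most of the loss lay outside the gene. An island at 64.7 to 69.1 kb (A) and 64.7 to 69.3 kb (B) after the first start was present in both 0 h lists and in neither 48 h list, and with 20 kb flanks, which leave it out, the difference was -0.46 (adjusted p = 0.0610). The promoter island itself shortened from 8.20 and 6.20 kb to 5.20 and 4.40 kb.

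Wnt5a lost less coverage in SETD5 cells. Its window held 12.8 kb (A) and 15.0 kb (B) at 0 h and 10.8 kb and 10.2 kb at 48 h, a log2 difference of -0.37 ± 0.17 that did not pass (adjusted p = 0.137). The distal region, chr14:29382601-29387200, stayed in both SETD5 lists at 48 h, with islands of 3.60 kb and 2.20 kb. At 48 h the Wnt5a window was more covered in SETD5 than in empty-vector cells by 0.58 ± 0.17 (adjusted p = 0.0426), but the difference between the time effects, 0.66 ± 0.24, did not pass (adjusted p = 0.154). Leaving out any 1 of 6 libraries, namely both SETD5 0 h, both SETD5 48 h or either empty-vector 48 h library, ended the 48 h call, with adjusted p from 0.0586 to 0.200.

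SETD5-V5 islands at the same region were seen at 6 h (66.3 to 69.9 kb in A, 63.9 to 69.9 kb in B) and in neither 0 h list. H3K4me1 islands overlapped it at 0 h and at 48 h. The Wnt5a promoter bore SETD5-V5 in all 4 lists and endogenous SETD5 in neither.

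**Figure D2:**
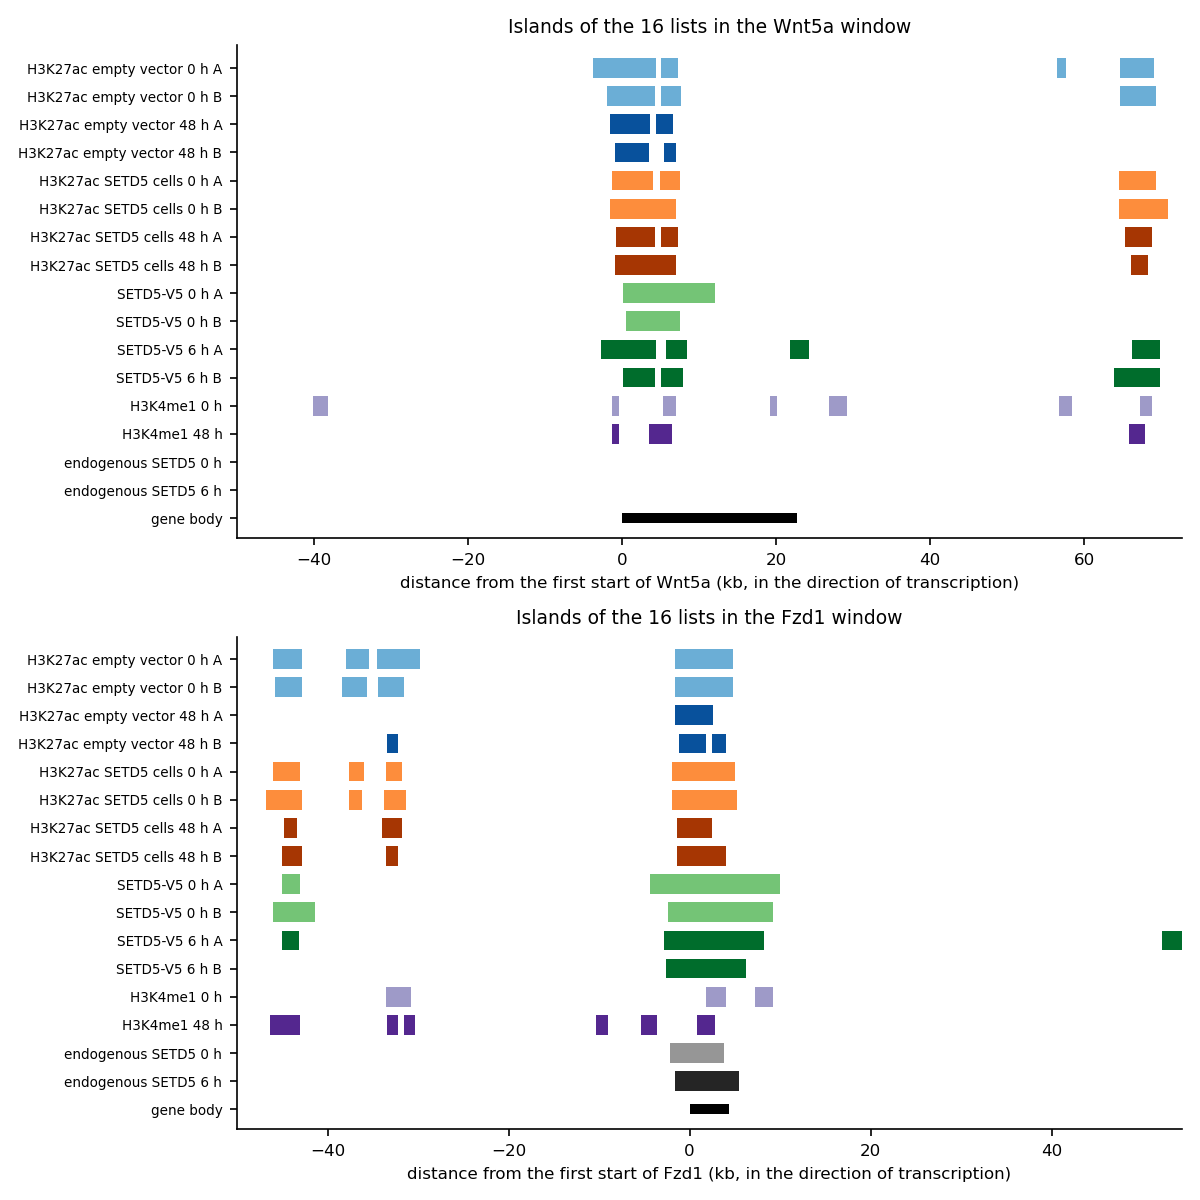
Islands of the 16 lists (bars, 1 row per library) in the windows of Wnt5a and Fzd1, by distance from the first start in kb, with the gene body in black. The Wnt5a region near 66.9 kb and the Fzd1 region farthest upstream are empty in both empty-vector 48 h rows and filled in both SETD5 48 h rows.

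Fzd1, a Frizzled receptor able to signal through β-catenin, had the largest loss of coverage among the members in empty-vector cells on the log2 scale. In empty-vector cells its window held 17.0 kb (A) and 15.0 kb (B) at 0 h and 4.20 kb and 5.80 kb at 48 h. That is a log2 difference of -1.51 ± 0.18 (SE, n = 2 per time point, limma adjusted p = 1.98e-04). In SETD5 cells the values were 13.4 kb and 15.0 kb at 0 h and 7.40 kb and 9.0 kb at 48 h, a difference of -0.73 ± 0.18 (adjusted p = 0.0156). The loss was thus larger than the spread between replicates under both vectors. Without SETD5 0 h A, SETD5 0 h B or SETD5 48 h A the adjusted p in SETD5 cells was 0.0532, 0.102 and 0.118.

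Distal islands made up much of this loss. The promoter island covered 6.40 kb in both 0 h lists of empty-vector cells and 4.20 and 3.00 kb at 48 h, and upstream of it 3 islands per list at 0 h were reduced to none (A) and 1 (B). With 20 kb flanks the difference was -0.46 (adjusted p = 0.0879). Of the upstream regions, chr5:4793601-4796600 was in both 0 h lists and neither 48 h list under either vector. The farther region was in neither empty-vector 48 h list but in both SETD5 48 h lists, as 1.40 and 2.20 kb islands.

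At 48 h the Fzd1 window was more covered in SETD5 than in empty-vector cells by 0.62 ± 0.18 (adjusted p = 0.0470), a call that 7 of 8 omissions of a single library ended, the exception being empty-vector 48 h B (adjusted p = 0.0344), with p up to 0.247 (without empty-vector 48 h A). The difference between the time effects, 0.79 ± 0.26, did not pass (adjusted p = 0.126). The far upstream region also bore SETD5-V5 in both 0 h lists and 1 of 2 lists at 6 h, and H3K4me1 at 48 h. Fzd1 was 1 of 2 members, with Tcf7l2, whose promoter bore SETD5-V5 in all 4 lists and endogenous SETD5 in both, the latter 6.00 kb long at 0 h and 7.0 kb at 6 h.

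Over all windows, 39 distinct regions were in both empty-vector 0 h lists and 5 of them (12.8%) were in neither 48 h list, against 26.0% of all such regions in the genome. They lay near Fzd1 (2), Wnt5a, Fzd4 and Tcf7l2. The Wnt5a and far upstream Fzd1 regions were the 2 of these 5 found in both SETD5 48 h lists. Genome-wide 23.9% of 7779 lost regions were in both SETD5 48 h lists. The Fzd4 region, 22.3 to 23.9 kb before the start, was lost under both vectors, and the Tcf7l2 region, 13.7 to 18.3 kb after the start, was kept in 1 of 2 SETD5 lists.

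Of 38 distinct regions in both empty-vector 48 h lists, 7 (18.4%) were in neither 0 h list, against 22.4% in the genome. They lay in Wnt5b (2), Lrp6 (3) and Tcf7l2 (2), and 0 of 7 were absent from both SETD5 48 h lists, against 23.3%. In SETD5 cells 8 of 47 regions (17.0%) were gained, against 21.4%, of which 0 were absent from both empty-vector 48 h lists, against 32.5%. SETD5 cells lost 7 of 48 regions (14.6%), against 19.8%, of which 1, at the 3′ end of Wnt5b, was in both empty-vector 48 h lists, against 3.70%. These comparisons share lists, and the counts carry no test.

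Wnt5b, the paralog of Wnt5a, moved in the opposite direction and by more. Its window held 16.2 kb (A) and 15.0 kb (B) at 0 h and 72.9 kb and 65.6 kb at 48 h in empty-vector cells, a log2 difference of 2.08 ± 0.14 (SE, n = 2 per time point, limma adjusted p = 1.04e-05). With SETD5 it held 19.6 kb and 25.0 kb at 0 h and 42.0 kb and 46.8 kb at 48 h, a difference of 0.97 ± 0.14 (adjusted p = 9.56e-04). Hence coverage rose under both vectors, and each 48 h value in SETD5 cells lay below both of empty-vector cells. At 48 h the SETD5 windows were less covered by -0.63 ± 0.14 (adjusted p = 0.0168), which did not pass without empty-vector 48 h A (0.114), SETD5 48 h A (0.126) or SETD5 48 h B (0.0684).

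Wnt5b was the single member whose time effect differed between the vectors by the interaction term, -1.11 ± 0.20 (adjusted p = 0.0217), against 4.46% of all genes (1.85% higher and 2.61% lower). The call ended when any of 5 libraries was left out (empty-vector 0 h B or 48 h A, SETD5 0 h B, 48 h A or 48 h B), with adjusted p from 0.0574 to 0.112.

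Much of this gain was not at a Wnt5b start. The window also holds Adipor2, a receptor for the fat hormone adiponectin, whose starts lie 127 kb and 156 kb after the first Wnt5b start, beyond the gene's 3′ end. Across that flank empty-vector 48 h A had a single island of 51.4 kb, ranked at 0.230%, and empty-vector 48 h B had islands of 20.8 and 17.8 kb, ranked at 0.818% and 2.00%, where each 0 h list had an island of 1.40 kb and 0 h A a further one of 1.60 kb. When each island was given to the gene with the nearest start, the Wnt5b difference was 0.27 in empty-vector cells (adjusted p = 0.230) and -0.01 in SETD5 cells (adjusted p = 1), and SETD5 cells at 48 h were higher by 0.17 (adjusted p = 0.562). The values for the whole window therefore describe the neighbourhood of Wnt5b and Adipor2.

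Inside the Wnt5b gene, 2 regions were in both empty-vector 48 h lists and neither 0 h list. One, at 12.3 to 14.7 kb in an intron, was also in both SETD5 48 h lists, in H3K4me1 at 48 h and not at 0 h, and in both SETD5-V5 lists at 6 h and neither at 0 h. The other, at 53.3 to 59.7 kb, lay beside the start of Fbxl14, an F-box gene nested in Wnt5b. The island over that start, 60 to 67 kb after the first Wnt5b start, was in all 8 H3K27ac lists at ranks of 1.63 to 2.53%.

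**Figure D3:**
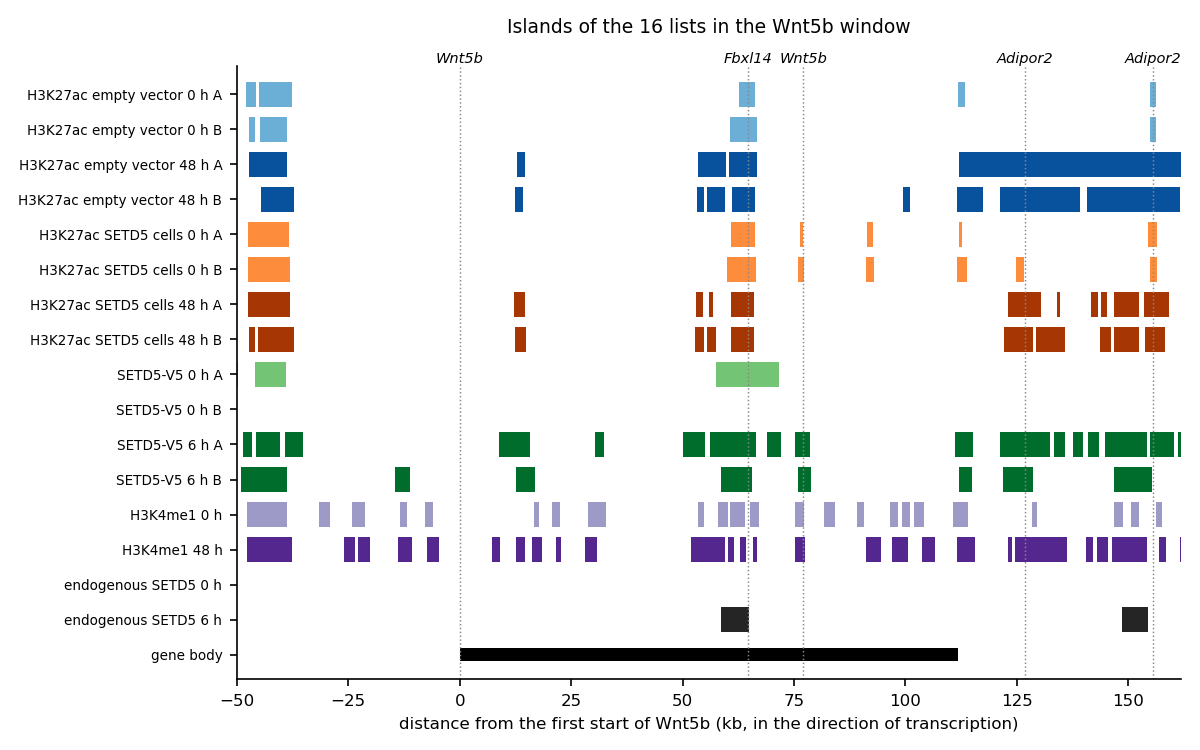
Islands of the 16 lists (bars, 1 row per library) in the Wnt5b window by distance from its first start in kb, with starts of Wnt5b, Fbxl14 and Adipor2 as dotted lines. The block beyond 111 kb in the empty-vector 48 h rows spans the Adipor2 starts and is broken into shorter islands in the SETD5 48 h rows.

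Lrp6 gained coverage under both vectors by similar amounts. In empty-vector cells its window held 49.0 kb (A) and 41.6 kb (B) at 0 h and 73.8 kb and 79.6 kb at 48 h, a log2 difference of 0.75 ± 0.14 (SE, n = 2 per time point, limma adjusted p = 0.00235). In SETD5 cells it held 45.4 kb and 54.6 kb at 0 h and 76.2 kb and 91.4 kb at 48 h, a difference of 0.73 ± 0.14 (adjusted p = 0.00400). Every 48 h value was above every 0 h value. The difference between the time effects was -0.02 ± 0.20 (adjusted p = 0.978), and SETD5 and empty-vector cells at 48 h differed by 0.12 ± 0.14 (adjusted p = 0.625).

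The gain of Lrp6 lay within the gene. Of its covered length, 22.3 kb (A) and 11.2 kb (B) were in the gene body at 0 h and 48.1 kb and 52.6 kb at 48 h in empty-vector cells. The promoter island grew from 5.20 and 5.0 kb to 10.8 and 16 kb. Regions at 65.9 to 69.3 kb and 70.5 to 74.1 kb after the start were in both 48 h lists of both vectors and in no 0 h list of either, with H3K4me1 at both time points and SETD5-V5 in 1 of 2 lists at 0 h and both at 6 h. Another region, at 110 to 113 kb, was gained in empty-vector cells but already present in both SETD5 0 h lists. Fzd1 and Lrp6 thus moved in opposite directions although both encode Wnt receptors at the cell surface.

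**Figure D4:**
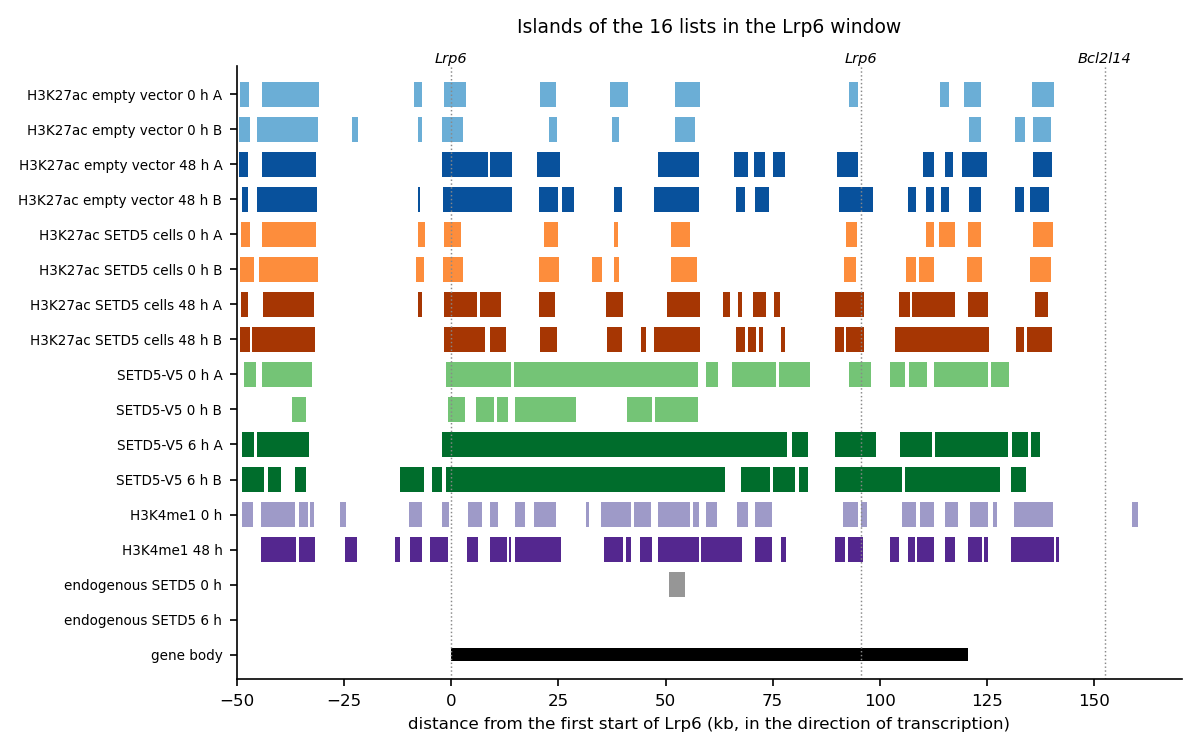
Islands of the 16 lists (bars, 1 row per library) in the Lrp6 window by distance from its first start in kb, with starts of Lrp6 and Bcl2l14 as dotted lines. The gained regions between 65.9 and 74.1 kb appear in all 4 H3K27ac rows at 48 h and none at 0 h, and the longest SETD5-V5 islands, 80.6 and 65.2 kb at 6 h, begin near the first start.

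Wnt6 and Wnt10a, ligands of the canonical branch, lie 19.6 kb apart on chromosome 1 and their windows share 93.8 kb (82.7% of the Wnt6 window). All islands lay in the shared part, so both took the same values and count as 1 observation. Coverage was low, with 6.00 kb (A) and 4.80 kb (B) at 0 h and 1.20 kb and 3.60 kb at 48 h in empty-vector cells, a log2 difference of -1.0 ± 0.33 (adjusted p = 0.0345). In SETD5 cells it was 5.0 kb and 6.20 kb at 0 h and 2.00 kb and 2.80 kb at 48 h, a difference of -0.96 ± 0.33 that did not pass (adjusted p = 0.0524). The 0 h and 48 h values did not overlap under either vector. The empty-vector call was lost in 7 of 8 omissions of a single library, held without empty-vector 48 h B (adjusted p = 0.00338), and its weakest value was -0.47 without empty-vector 48 h A (adjusted p = 0.226).

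Their islands ranked no better than 37.3% in any H3K27ac list. An island inside Wnt6, at most 2.1 to 4.7 kb after its start in SETD5 cells, and one near 45 kb recurred. Another, 34.3 to 36.7 kb after the Wnt6 start and downstream of Wnt10a, was in both SETD5 0 h lists and empty-vector 0 h B and in no 48 h list. Neither SETD5-V5 nor endogenous SETD5 had an island in this window in any list, as in 26.7% and 76.6% of all gene windows.

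Wnt10b, Fzd4 and Tcf7l2 did not pass in either time comparison. Wnt10b, the canonical ligand best known for holding back adipogenesis, had 7.20 kb (A) and 3.80 kb (B) at 0 h and 6.80 kb and 6.20 kb at 48 h in empty-vector cells (log2 difference 0.26 ± 0.28, adjusted p = 0.519). With SETD5 it had 4.20 kb and 6.20 kb at 0 h and 7.40 kb and 5.40 kb at 48 h (0.26 ± 0.28, adjusted p = 0.556). The time points overlapped under both vectors. No H3K27ac island touched the Wnt10b gene body except 1 in SETD5 48 h A, and the best-ranked island of the window in each list lay 14.0 to 17.0 kb after the start, over the starts of Arf3.

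Fzd4 had 16.7 kb (A) and 7.40 kb (B) at 0 h and 10.9 kb and 6.73 kb at 48 h in empty-vector cells (log2 difference -0.35 ± 0.32, adjusted p = 0.442), so that the spread between the 0 h replicates exceeded the difference between time points. In SETD5 cells it had 13.6 kb and 15.8 kb at 0 h and 9.0 kb and 10.0 kb at 48 h, without overlap, as for 30.7% of all genes tested that were lower (-0.58 ± 0.32, adjusted p = 0.225). Without empty-vector 0 h B the empty-vector difference was -0.88 and passed (adjusted p = 0.0366).

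Tcf7l2, with the longest window of the group, had 83.8 kb (A) and 62.4 kb (B) at 0 h and 90.0 kb and 77.6 kb at 48 h in empty-vector cells (log2 difference 0.21 ± 0.14, adjusted p = 0.297). With SETD5 it had 86.8 kb and 90.4 kb at 0 h and 87.8 kb in both 48 h lists (-0.01 ± 0.14, adjusted p = 0.973). Without empty-vector 0 h A the difference in empty-vector cells was 0.42 and passed (adjusted p = 0.0297). Regions at 41.9 to 44.7 kb and 108 to 113 kb after the first start were gained in empty-vector cells.

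Counted over SETD5 cells as a whole, 3 of 9 genes passed between the time points (Wnt5b and Lrp6 higher, Fzd1 lower) against 28.5% of all genes (15.9% higher and 12.7% lower). The time points did not overlap in SETD5 cells for 2 genes that were higher, as for 32.0% of all genes, and for 5 that were lower (4 with Wnt6 and Wnt10a counted once), as for 30.7%. Between the vectors at 0 h, 0 of 9 passed by limma against 3.30% of all genes (2.06% higher and 1.24% lower in SETD5 cells), and 1 gene, Wnt5b, had an unadjusted p under 0.05 (0.48 ± 0.14 higher in SETD5 cells, unadjusted p = 0.00765, adjusted p = 0.114). The vectors did not overlap at 0 h for Wnt5b and Tcf7l2, both higher in SETD5 cells, as for 24.8% of all genes (14.1% lower). At 48 h, 3 of 9 passed (Wnt5a and Fzd1 higher and Wnt5b lower in SETD5 cells) against 16.8% of all genes (7.86% higher and 8.93% lower). These 3 were also the genes whose vectors did not overlap at 48 h, as for 22.4% of all genes that were higher and 33.1% that were lower. Of all calls, 62.5% at 0 h and 46.8% at 48 h were higher in SETD5 cells, or 43.3% and 30.2% when each list was cut to an equal number of islands, with the same 3 genes passing at 48 h. The comparisons share libraries, and the 48 h empty-vector values enter 3 of them.

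SETD5-V5 was found in the windows of 7 members and in none of the 4 lists for Wnt6, Wnt10a and Axin2, and 73.3% of all gene windows held an island in at least 1 list. Between 0 h and 6 h, 0 of 7 genes passed by limma, adjusted over 13825 genes, and 0 of 7 had an unadjusted p under 0.05, against 17.8% of all genes that passed (17.7% higher and 0.101% lower). The median difference was 0.91 for the members and 1.91 for all genes. After scaling each list to its total covered length these medians were -0.70 and 1.02, so that no direction is given for the group. The scaled values for Wnt5a and Lrp6 were -0.91 and -0.70, where the unscaled ones were 0.60 and 0.91. A gene that did not pass here is not shown to be equal at both time points. Higher values made up 99.4% of all calls, or 76.2% with equal numbers of islands per list. The 6 h lists held more islands than the 0 h lists throughout the genome, and the part of this in the values below was not tested.

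**Figure D5:**
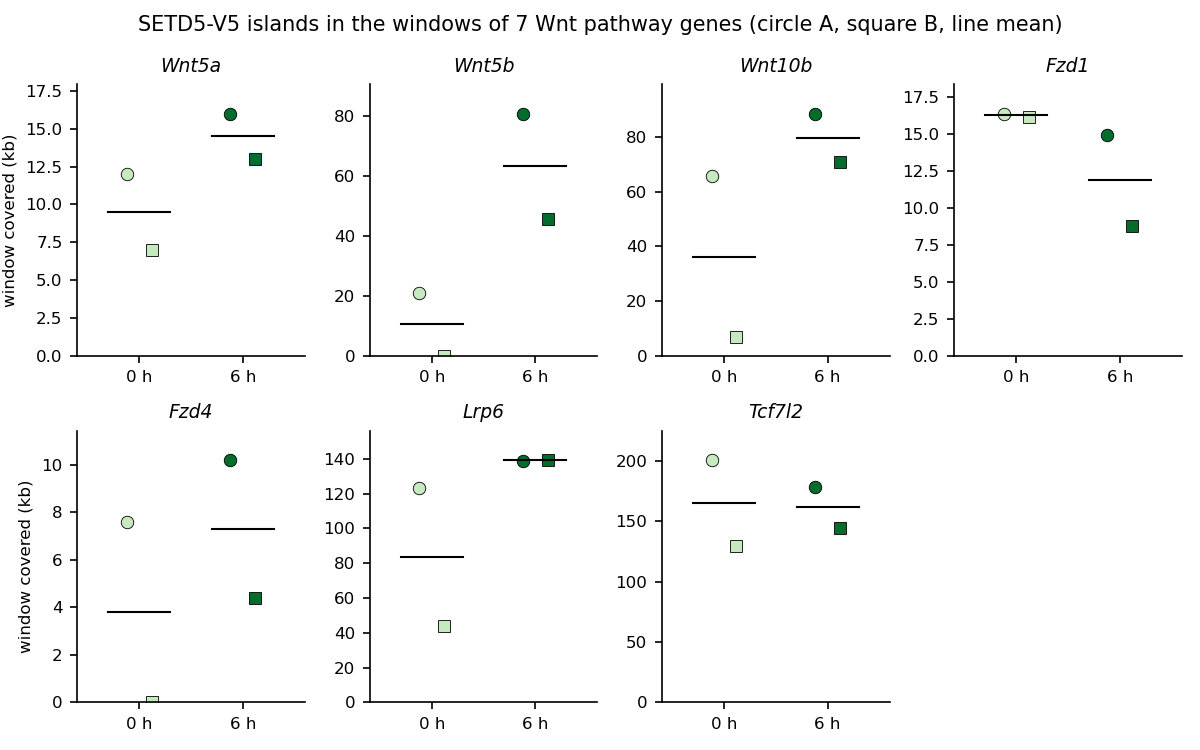
Length of each gene's window covered by SETD5-V5 islands (kb, linear axis from 0) at 0 h and 6 h. Circles are replicate A, squares replicate B and lines the mean; 0 h replicate B is the lowest value in 6 of the 7 genes, and for Fzd1 the lowest is 6 h replicate B.

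Wnt5b had the widest contrast, with 20.9 kb (A) and none (B) at 0 h and 80.7 kb and 45.6 kb at 6 h (log2 difference 3.72 ± 1.76, limma adjusted p = 0.243). Of the 6 h coverage, 49.0 kb (A) and 31.6 kb (B) lay outside the gene, in flanks that include Adipor2. The second start of Wnt5b, 77.1 kb inside the longest transcript, bore SETD5-V5 in both 6 h lists and neither 0 h list. Wnt10b had 65.8 kb and 6.78 kb at 0 h and 88.6 kb and 71.0 kb at 6 h (1.82 ± 1.21, adjusted p = 0.345), spread over 6 neighbouring genes, Wnt1 and Arf3 among them. In 4 of the 7 windows (Wnt5a, Wnt5b, Wnt10b and Lrp6) both 6 h values lay above both 0 h values, as in 66.9% of all genes tested. The 0 h replicates of Wnt5b and Wnt10b differed widely.

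Lrp6 had 123 kb (A) and 43.8 kb (B) at 0 h and 139 kb in both 6 h lists (0.91 ± 0.61, adjusted p = 0.347). An island that spans the promoter was 80.6 kb (A) and 65.2 kb (B) long at 6 h, each ranked at about 0.29% (0.292% and 0.290%). Tcf7l2 had 201 kb and 130 kb at 0 h and 179 kb and 145 kb at 6 h (-0.01 ± 0.35, adjusted p = 0.992), and its longest island, 91.6 kb, was in 0 h A. The longest Tcf7l2 island in 0 h B was 16.6 kb, and the longest Lrp6 island in 0 h A was 42.8 kb.

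Fzd1 had 16.4 kb (A) and 16.2 kb (B) at 0 h and 15.0 kb and 8.80 kb at 6 h (-0.47 ± 0.61, adjusted p = 0.582), the sole member with both 6 h values below both 0 h values, as in 1.55% of all genes tested. Wnt5a had 12 kb and 7.0 kb at 0 h and 16 kb and 13 kb at 6 h, and Fzd4 had 7.60 kb and none at 0 h and 10.2 kb and 4.40 kb at 6 h. Without 0 h replicate A, whose list is the larger of the 0 h lists, 5 of the 7 genes passed (Wnt5b, Wnt10b, Fzd4, Lrp6 and Tcf7l2, all higher), as did 10577 of 13171 genes.

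Of 33 distinct SETD5-V5 regions in both 6 h lists, 8 (24.2%) were in neither 0 h list, against 55.9% in the genome, and 6 of these lay in the Wnt5b window. Of 13 in both 0 h lists, 1 (7.69%), downstream of Tcf7l2, was in neither 6 h list, against 4.32%. In the Wnt5b window, the gained regions at and beyond the 3′ end of the gene were nearest to an Adipor2 start.

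At promoters, SETD5-V5 was present in both 0 h lists for 4 of the 10 members (Wnt5a, Fzd1, Lrp6 and Tcf7l2), against 4.40% of all genes. In both 6 h lists it was present for those and for Wnt5b, Wnt10b and Fzd4, 7 of 10, against 20.7%. Endogenous SETD5 was at 2 of 10 promoters at either time point (Fzd1 and Tcf7l2), against 1.84% at 0 h and 6.05% at 6 h. H3K4me1 was at 6 of 10 promoters at 0 h and at 48 h, against 19.6% and 21.8%, with Wnt10a among them at 0 h and Wnt6 at 48 h. Here and for H3K27ac, an island at any annotated start counted, and the shares were not adjusted for the number of starts or island length. Tcf7l2 had 13 starts, Wnt5b and Wnt10b 3 each, and Fzd1 and Fzd4 1 each.

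Endogenous SETD5 and H3K4me1 have 1 library per time point, so their differences carry no replicate check. Endogenous SETD5 islands were in the windows of 5 of 10 members, against 23.4% of all gene windows. At 0 h they covered 6.00 kb at Fzd1, 4.60 kb at Tcf7l2, 8.60 kb at Wnt10b and 3.80 kb at Lrp6, and at 6 h 7.0 kb at Fzd1, 8.80 kb at Tcf7l2 and 12.2 kb at Wnt5b. Of these 5, 1 was higher and 2 were lower at 6 h by a factor of 2 or more on the kb + 1 scale, against 63.7% and 11.5% of 5244 genes. The share of windows with an island was not adjusted for window length. Among these 5 the length was 292 kb (Tcf7l2), 220 kb (Lrp6), 212 kb (Wnt5b), 106 kb (Wnt10b) and 104 kb (Fzd1).

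H3K4me1 covered 148.8 kb at 0 h and 153 kb at 48 h at Tcf7l2, 91.4 kb and 103 kb at Lrp6, and 55.4 kb and 86.1 kb at Wnt5b. The 48 h value was lower at Wnt5a (11.4 kb to 6.00 kb), Fzd4 (12.6 kb to 7.20 kb) and Wnt6 and Wnt10a (13.6 kb to 8.40 kb), and was higher at 48 h at Wnt10b (23.2 kb to 38.8 kb) and Fzd1 (7.0 kb to 11 kb). None of 9 members differed by a factor of 2, against 15.8% of 16649 genes higher and 9.98% lower. For Fzd1 the 48 h H3K4me1 value was thus higher where both H3K27ac comparisons were lower.

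Axin2, a β-catenin target that acts as feedback inhibitor, had no island of any mark in its window in any of the 16 lists, a state shared by 15.3% of protein-coding genes. The nearest island on the downstream side was 60.7 kb beyond the end of the gene, just outside the 50 kb flank, in each of the 16 lists. It began at the same position in every list, also in endogenous SETD5 at 0 h, a list of 2132 islands. Its start thus did not vary with antibody or time point, and whether it reflects any of these marks was not tested. On the upstream side the nearest lay 145 to 704 kb before the start of the gene. Absence from a list means that the region did not reach the caller's threshold, and does not give the level of the mark.

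Other genes of the pathway were taken from 6 lists of 77 genes in all, of which 72 could be tested for H3K27ac. Between 0 h and 48 h in empty-vector cells, 18 were higher and 18 lower, with a median of 0.03, against 24.9% and 14.2% of all genes. In SETD5 cells 14 were higher and 13 lower, against 15.9% and 12.7%. The empty-vector shares also apply to the counts per list that follow. Among 14 other ligands, 3 were higher and 5 lower, led by Wnt9a, which had 19.0 and 12.2 kb at 0 h and no island at 48 h in empty-vector cells (limma adjusted p = 9.31e-06), and Wnt2, with 4.20 and 3.00 kb at 0 h and none at 48 h.

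Of 13 other receptors tested, 1 was higher and 3 were lower. The lower ones included the Frizzled receptors Fzd6 (7.20 and 5.0 kb at 0 h, none at 48 h) and Fzd2 (-1.23 ± 0.14, adjusted p = 1.39e-04), and the co-receptor Lrp5 was higher by 0.88 ± 0.12 (adjusted p = 3.79e-04), as was Lrp6 among the members. In SETD5 cells Fzd6 had 4.0 and 4.52 kb at 48 h, and its time effects differed between the vectors by 1.87 ± 0.30 (adjusted p = 0.0151).

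Secreted antagonists and agonists had 3 higher and 7 lower of 13 tested, among them Sfrp2, a decoy receptor for Wnt ligands (-1.88 ± 0.18, adjusted p = 5.25e-05), and Rspo2, an agonist (-1.32 ± 0.15, adjusted p = 1.27e-04). Their median was -0.45. Intracellular components had 3 higher and 0 lower of 14, including Apc (1.74 ± 0.15, adjusted p = 3.30e-05) and Znrf3, a ubiquitin ligase that removes Frizzled receptors (1.01 ± 0.22, adjusted p = 0.00465). Nuclear partners had 6 higher and 1 lower of 11, with a median of 0.56. The lower one, Pygo1, had the largest change of those that passed (-2.04 ± 0.35, adjusted p = 0.00138). Higher ones included the co-repressors Tle4 (1.52 ± 0.24, adjusted p = 7.77e-04) and Tle1 (1.29 ± 0.22, adjusted p = 0.00120). Target genes had 2 higher and 2 lower of 8, with Nkd1, a feedback inhibitor, lower (-1.87 ± 0.16, adjusted p = 3.09e-05) and Nkd2 higher (1.69 ± 0.36, adjusted p = 0.00476).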

How the data were processed

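ChIP-seq islands of 16 libraries of 3T3-L1 cells were analysed. According to the study's methods, reads of 36 bp were placed on mm9 by the authors, using ELAND or Bowtie2, and islands were called in each library separately with SICER (window 200 bp, E-value 100, and a gap of 400 bp for histones or 600 bp for SETD5 libraries). Each deposited list holds chromosome, start, end and the caller's score, and the version used is not stated list by list in the sources used here. Where the study's reporting summary gives island numbers for both SICER and SICER2, the lists hold the SICER2 numbers. The score was used only to rank islands within a list. No read counts were used, so the depth behind an island is unknown. Calls depend on library depth, gap and threshold, and the gap differs between marks.

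Groups followed the sample titles, in which days 0 and 2 stand for 0 h and 48 h, also where the virus labels differ, as described above. Genes were taken from GENCODE M1 on mm9 (NCBIM37), and sequences from that genome. The sequence of 1 further region is not reported here. For each of 22367 protein-coding genes the covered length of the gene body plus 50 kb each side was computed, and log2(kb + 1) was tested with limma 3.58.1 (R 4.3.3, trend and robust options) over genes with an island in at least 2 libraries, with Benjamini-Hochberg adjustment and an adjusted p threshold of 0.05. All 8 H3K27ac libraries shared 1 fit, and the 4 SETD5-V5 libraries another. The study calls the H3K27ac and V5 replicates biological. No test was made for marks with 1 library per time point, where a factor of 2 was used. A region counted as gained or lost when it was in both lists of a time point and in neither list of the other.

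The fits were tested on simulated data, for H3K27ac on the time comparison in empty-vector cells. That fit recovered 47% of planted changes of 1 log2 unit and 82% of those of 2 units. The SETD5-V5 fit recovered none. Changes were planted in a small part of the genes, whereas in the data 6976 of 17869 genes passed for H3K27ac and 2455 of 13825 for SETD5-V5. The adjusted threshold was therefore stricter in the simulation, and these shares do not give the recovery in the data. A SETD5-V5 gene that did not pass still says little, and an H3K27ac change in a gene that did not pass may have been missed. All 10 members were described whatever their values. Other pathway genes were given by counts over 6 lists, and named only if they passed, at most 3 per list and comparison. The members and lists were chosen with earlier results of these data known. Alternatives changed the flanks, gene assignment, island numbers or scores, scaling, pseudocount, filter, measure and replicate block, or left out 1 library. The gene body alone was added after seeing the data.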

Additional observations from a re-analysis of the deposited data

Results flagged for a closer look

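The H3K27ac coverage of the Wnt5b window changed differently over time in the 2 cell lines. The interaction term, the time effect in SETD5 cells minus that in empty-vector cells, was -1.11 ± 0.20 on the log2(kb + 1) scale (limma adjusted p = 0.0217, n = 2 per group). The time effect was 2.08 in empty-vector cells and 0.97 in SETD5 cells. Both 48 h replicates were higher than both 0 h replicates under each vector, so the difference lay in the size of the gain and not in its direction. With each island given to the gene with the nearest start the term was -0.28 (adjusted p = 0.554), and over the gene body alone it was -1.13 (adjusted p = 0.142).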

How the results depend on the processing

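Of 949 values for single genes under the alternatives, 746 kept direction and side of the threshold, 82 no longer passed, 24 newly passed and 97 turned direction, of which 5 passed before or after and 92 passed neither time. The number of members passing between 0 h and 48 h in empty-vector cells, 6, was 2 with 20 kb flanks, 3 with islands given to the nearest start, 1 for the number of islands and 2 for the gene body alone. In SETD5 cells it was 3, and became 5 with 100 kb flanks, 5 after scaling to the total covered length, 0 for the number of islands and 1 for the gene body alone. Between vectors at 0 h the count of 0 became 2 with islands above the median score and 1 after scaling. At 48 h the count of 3 became 0 with 20 kb flanks, 0 with the nearest start, 1 without the filter on low values, 0 for the number of islands and 0 for the gene body alone. The interaction count of 1 became 2 with 100 kb flanks, 0 with the nearest start, 0 for the number of islands and 0 for the gene body alone. The SETD5-V5 count of 0 became 1 with islands above the median score (Fzd4, higher) and 1 after scaling (Tcf7l2, lower). Leaving out 1 library gave 4 to 6 (empty vector), 2 to 5 (SETD5 cells), 0 (vectors at 0 h), 0 to 2 (vectors at 48 h), 0 to 1 (interaction) and 0 to 5 (SETD5-V5, with 5 only without 0 h replicate A). A lone sample was then assumed to vary like the other groups. The cause of these shifts was not tested. The values that turned direction were, over time in empty-vector cells, Wnt10b (-0.17 with 100 kb flanks and -0.13 to 0.64 without 1 library), Fzd4 (0.38 above the median score, 0.21 for the gene body alone and -0.88 to 0.19 without 1 library) and Tcf7l2 (-0.0039 to 0.42 without 1 library). They were, over time in SETD5 cells, Wnt5b (-0.0096 with the nearest start), Wnt10b (-0.19 with 100 kb flanks), Fzd4 (0.058 above the median score and 0.27 for the gene body alone) and Tcf7l2 (0.032 above the median score, 0.072 for the number of islands and -0.042 to 0.016 without 1 library). Turned values between vectors at 0 h were Wnt5a (0.10 with 100 kb flanks, 0.23 above the median score, 0.018 for the gene body alone and -0.19 to 0.045 without 1 library), Wnt6 (-0.29 with 20 kb flanks, -0.0033 with 100 kb flanks, -0.29 with the nearest start, -0.50 with equal numbers of islands, -0.29 for the gene body alone and -0.091 to 0.18 without 1 library), Wnt10a (-0.0033 with 100 kb flanks, -0.50 with equal numbers of islands and -0.091 to 0.18 without 1 library), Wnt10b (0.21 for the number of islands and -0.42 to 0.35 without 1 library), Fzd1 (0.13 with 20 kb flanks) and Fzd4 (-0.18 to 0.90 without 1 library). Those between vectors at 48 h were Wnt5b (0.17 with the nearest start and 0.63 for the number of islands), Wnt6 and Wnt10a (-0.45 to 0.62 without 1 library), Wnt10b (0.20 with 20 kb flanks, 0.33 with the nearest start, 0.026 above the median score, 0.16 for the number of islands and -0.23 to 0.16 without 1 library), Fzd4 (-0.00095 with equal numbers of islands, -0.13 above the median score and -0.19 to 0.44 without 1 library), Lrp6 (-0.0083 to 0.25 without 1 library) and Tcf7l2 (-0.059 with equal numbers of islands and -0.035 to 0.18 without 1 library). Other turned values, in the interaction, were Wnt5b (0.18 for the number of islands), Wnt6 (-0.069 above the median score, -0.12 for the number of islands and -0.49 to 0.57 without 1 library), Wnt10a (-0.46 with the nearest start, -0.069 above the median score, -0.12 for the number of islands and -0.49 to 0.57 without 1 library), Wnt10b (-0.018 with 100 kb flanks, -0.15 with equal numbers of islands, -0.0020 with a pseudocount of 0.1 kb, -0.047 for the number of islands and -0.38 to 0.39 without 1 library), Fzd1 (-0.092 with 20 kb flanks), Fzd4 (0.064 with the nearest start, 0.13 for the number of islands, 0.062 for the gene body alone and -0.77 to 0.31 without 1 library) and Lrp6 (0.34 above the median score, 0.024 after scaling and -0.15 to 0.11 without 1 library). The last, for SETD5-V5, were Wnt5a (-1.83 with equal numbers of islands, -0.090 above the median score, -0.91 after scaling and -0.26 for the gene body alone), Fzd4 (-0.15 to 2.96 without 1 library), Lrp6 (-0.70 after scaling) and Tcf7l2 (0.13 with 100 kb flanks, 0.033 above the median score, 0.28 for the number of islands and -0.32 to 0.30 without 1 library).

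With the replicate letter as a replicate block, 5 members passed over time in SETD5 cells, 1 between vectors at 48 h (Wnt5b, with adjusted p = 0.0562 for Wnt5a and 0.0518 for Fzd1), and the counts of the other 4 comparisons were the same. Over all genes the block gave 3984 SETD5-V5 calls against 2455 without it. Deviations of same-letter H3K27ac libraries correlated at -0.034 to 0.118 and those of SETD5-V5 at 0.175, so the letters were not treated as pairing the samples.

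Islands are calls without counts, so a mark below the caller's threshold could not be told from its absence. With 2 libraries per group, small differences in coverage could not be resolved, and a change inside an island that did not alter its length was not measured by covered length.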
